A study of Caenorhabditis elegans with 2 samples.

Results

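Of the 2498 EFL-1::GFP peaks in the authors' optimal list, 297 lay between genes and outside promoter windows. They were chosen by position alone. The summit of each had to lie on a nuclear chromosome, outside the span of every annotated gene, and in no promoter window. Such a window reached from 1000 bp before to 200 bp past the 5′ end of each annotated protein-coding transcript. These peaks are called intergenic peaks here and are numbered by falling signal, so that intergenic peak 1 had the highest. They are compared with the 1892 promoter peaks, whose summits lay in such a window, and with the 291 gene body peaks, whose summits lay in a gene span outside all windows. The remaining 18 peaks were mitochondrial.

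EFL-1 was mapped by chromatin immunoprecipitation and sequencing (ChIP-seq) in whole, mixed-sex young adults of *Caenorhabditis elegans*, strain YL445. The worms carried unc-119(ed3) and the integrated transgene vrIs81, in which the germline promoter of *pie-1* drives EFL-1 fused to GFP and FLAG ahead of the *efl-1* 3′ untranslated region, with an *unc-119* (+) marker. There were 2 biological replicates of this 1 group, and no worms lacking the transgene were analysed here. One label field names efl-1 as the antibody's target and another the eGFP fusion, so the part of untagged EFL-1 in the signal is not known. Because whole worms were used, a low signal from fewer cells and a low signal from less binding per cell cannot be told apart.

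EFL-1 is an E2F-family transcription factor that binds DNA together with a DP partner and acts, in many contexts, within the DREAM complex, a repressor of cell cycle genes. E2F proteins recognise a short GC-rich core and are best known from binding close to transcription starts. In the worm, annotated 5′ ends are often sites where a spliced leader is joined to the transcript, so true starts can lie some way upstream, and downstream genes of operons often have no promoter of their own. DNA between genes can therefore hold unannotated starts, distal regulatory elements, and the flanks of small non-coding RNA genes that a window on protein-coding genes does not cover.

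The E2F core was searched as TTCCCGC, in the form TTCGCGC, in the form TTGCCGC and in the form TTGGCGC, on both strands, with overlapping matches kept, within 50 bp of each summit. The stretches below show it in 8 of the 10 highest intergenic peaks that held one, each read 5′ to 3′ on the strand named, in ce11 coordinates, with the core in capitals. They are shown because the core was the sequence found more often at these summits than beside them. The bases are from the RefSeq copy of WBcel235.
Intergenic peak 1 (chrII:12739459-12739485, plus strand): aaatcaaaaaTTGGCGCctaatttttt
Intergenic peak 2 (chrII:12800116-12800142, minus strand): gtttttcaaaTTCGCGCgcgcggttac
Intergenic peak 4 (chrII:2451222-2451248, minus strand): gccggaaattTTCGCGCcgcaaatcct
Intergenic peak 5 (chrII:8015560-8015586, minus strand): agttttttttTTCCCGCataccgtact
Intergenic peak 10 (chrV:17859238-17859264, plus strand): aatgcgatttTTCGCGCggaaaacgag
Intergenic peak 11 (chrIV:9368024-9368050, minus strand): ggcaccgcttTTGGCGCgaaactcgtt
Intergenic peak 13 (chrV:11896669-11896695, minus strand): cctctcccgtTTCCCGCtctccaccag
Intergenic peak 17 (chrV:2600689-2600715, plus strand): tttttctacaTTGCCGCcaactttttc
Counted along the chromosome, the middle of the core lay 38 bp before the summit in peak 1, 1 bp after it in peak 2, 12 bp after it in peak 4 and 25 bp after it in peak 13. Among the first 4 shown, peak 1 thus had its core farthest from the summit.

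The next 4 stretches, on the plus strand and centred on the summit, are from intergenic peaks of similar height that held no core within 50 bp. They are shown because high signal did not require a match.
Intergenic peak 3 (chrIV:3212124-3212150): cgcgcgcgcgcgccgttttcagtcgct
Intergenic peak 6 (chrII:12284231-12284257): tcgcagcgacttttcgaaaatcttcag
Intergenic peak 8 (chrV:13131670-13131696): gtctcaaggtacggtagttttccactt
Intergenic peak 14 (chrIV:379762-379788): ccgccaccaattggcgtatcgtggcga
The 4 share no core, and the stretch of peak 3 opens with alternating c and g. Peaks 6 and 14 held a hexamer described below as CHR-like within 50 bp of the summit, and peaks 3 and 8 held none.

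The intergenic peaks made up 12.0% of the 2480 nuclear peaks (95% Wilson interval 10.8 to 13.3%). The DNA that meets the same position rule covered 21.7 Mb, or 21.6% of the nuclear genome. Intergenic peaks thus stood at 13.7 per Mb of their DNA (95% exact Poisson interval 12.2 to 15.4), against 72.2 per Mb in promoter windows (69.0 to 75.5) and 5.55 per Mb in gene bodies (4.93 to 6.23). Per length, intergenic DNA outside promoter windows held fewer peaks than promoter windows and more than gene bodies. All such intervals cover counting error over peaks and not the spread between replicates.

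The share was lowest among the strongest regions. Of the nuclear regions ranked 1 to 500 by pooled signal, 6.49% were intergenic (4.64 to 9.02%), and of those ranked 2001 to 2498, the end of the optimal list, 15.5% were (12.6 to 18.9%). Below the optimal list, the pooled relaxed list continues to rank 30000, and its last 10000 regions were intergenic in 20.0% of cases (19.3 to 20.8%). The share was thus higher at lower ranks and came near the 21.6% of the genome that this DNA covers.

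**Figure D1:**
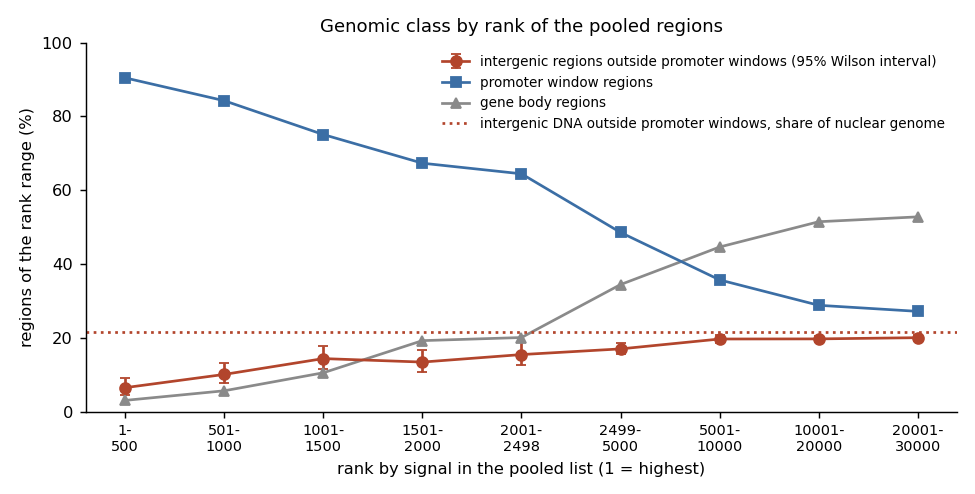
Share of nuclear regions in each rank range of the pooled list (vertical axis, percent) that were intergenic outside promoter windows (circles, bars are 95% Wilson intervals), in promoter windows (squares) or in gene bodies (triangles). The dotted line is the 21.6% of the nuclear genome that is intergenic DNA outside promoter windows; the intergenic share lies at 6.49% in ranks 1 to 500 and at 20.0% in ranks 20001 to 30000.

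Intergenic peaks carried less signal than promoter peaks. The authors' pooled signal value had a median of 60.6 over the 297 intergenic peaks (quartiles 43.2 and 94.9, range 34.9 to 735), against 81.9 over promoter peaks (quartiles 50.2 and 161, highest 1564) and 49.9 over gene body peaks (highest 585). The same order held in each replicate's own list, where medians were 17.5, 24.6 and 14.9 for intergenic, promoter and gene body peaks in replicate 1 and 44.9, 60.0 and 36.5 in replicate 2. The median of the whole optimal list was 71.1, and 49.8% of all nuclear peaks lay above it. Among intergenic peaks 113 of 297 did (38.0%, 32.7 to 43.7%), against 1059 of 1892 promoter peaks (56.0%), a difference of −17.9 percentage points (95% Newcombe interval −23.7 to −11.9). Against the 22.0% of gene body peaks the difference was 16.1 points (8.67 to 23.2). The authors' −log10 q-value ran from 2.18 to 2.92 over the intergenic peaks, and 24 stood at that upper limit.

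**Figure D2:**
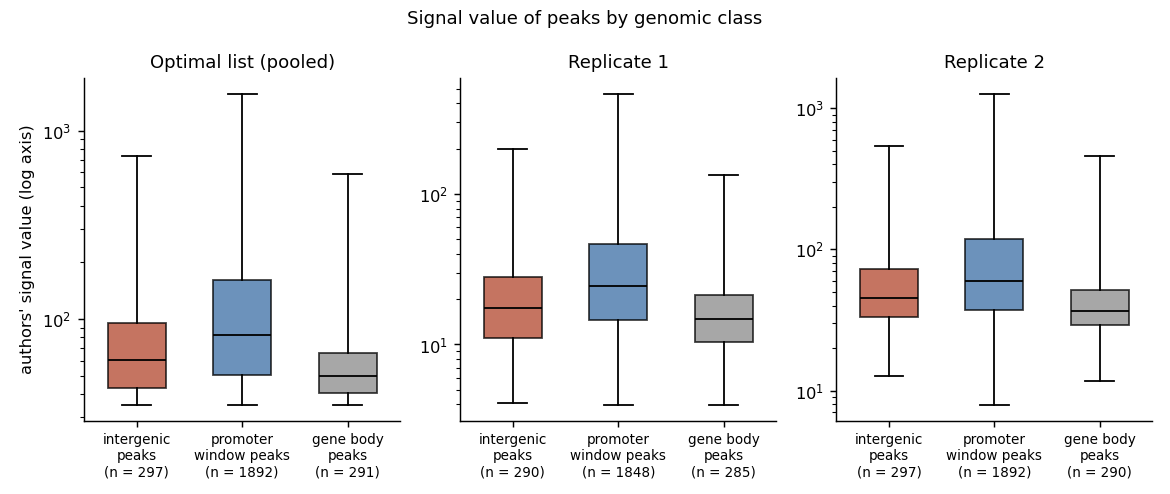
Authors' signal value (log axis) of optimal peaks in the pooled list, in replicate 1 and in replicate 2, by class. Boxes span the quartiles with a line at the median, and whiskers reach the lowest and highest peak; in the pooled list the medians are 60.6 for intergenic, 81.9 for promoter window and 49.9 for gene body peaks.

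The share detected in both replicates together was also lower than among promoter peaks. The 2498 regions of highest signal in a replicate's own list are called its top regions, and 72.9% of all optimal peaks overlapped top regions of both replicates. Of the intergenic peaks 190 of 297 did (64.0%, 58.4 to 69.2%), against 1450 of 1892 promoter peaks (76.6%), a difference of −12.7 points (−18.6 to −7.06). Gene body peaks stood at 56.4%, and the difference from them, 7.62 points, had an interval that included 0 (−0.29 to 15.4). By replicate, 210 intergenic peaks (70.7%) overlapped top regions of replicate 1 and 270 (90.9%) those of replicate 2, so that 80 were found among the top regions of replicate 2 alone, 20 among those of replicate 1 alone and 7 among neither. In the full lists of 30000, 290 intergenic peaks were present in replicate 1 and all 297 in replicate 2.

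Detection was higher at higher pooled signal in both intergenic and promoter peaks. Pooled signal comes from the same 2 replicates whose ranks define the top regions. The bins below therefore describe the peaks and cannot test whether detection differed apart from signal. Intergenic peaks were split by pooled signal into 4 bins of nearly equal number, and each bin was set beside the promoter peaks in the same signal range. In the highest bin, from 101 to 735, 98.6% of intergenic peaks and 99.6% of promoter peaks lay in top regions of both replicates, and in the second bin the shares were 83.8% and 89.1%. The third bin had 60.8% and 60.5%, and the lowest, from 34.9 to 43.2, had 13.3% and 19.1%. Each of the 4 differences had an interval that included 0, the widest, in the third bin, from −12.1 to 11.8 points. Among the 113 intergenic peaks in the upper 50% of the list, 96.5% lay in top regions of both replicates, and the difference from promoter peaks there was −1.84 points (−7.09 to 0.52).

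Across the 290 intergenic peaks present in both relaxed lists, the Spearman correlation of the signal between replicates was 0.664. It was 0.818 over 1848 promoter peaks and 0.454 over 284 gene body peaks. These are descriptions over peaks of the same 2 libraries, and the promoter peaks spanned a wider range of signal. Of the intergenic peaks, 8 shared a region of the replicate 2 list with another intergenic peak. The replicate values of such regions enter more than once here and in the detection shares.

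**Figure D3:**
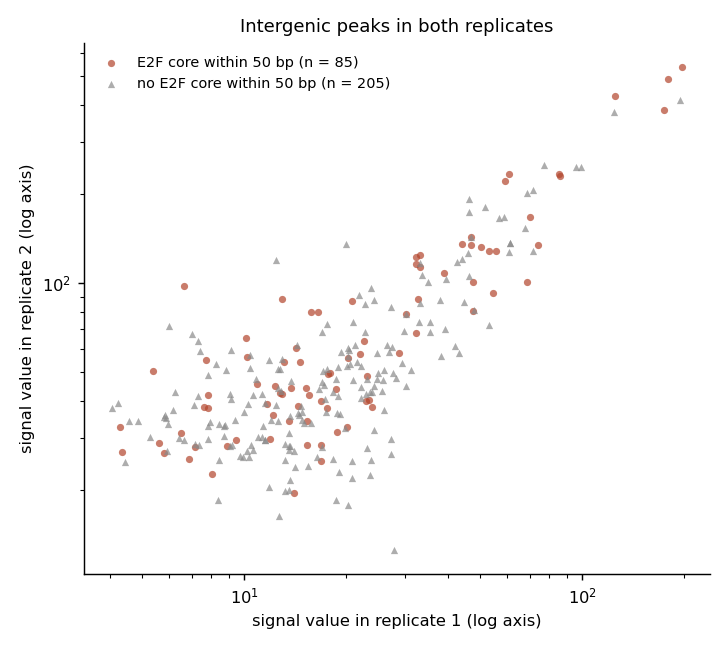
Signal value of the 290 intergenic peaks present in both relaxed lists, replicate 1 on the horizontal and replicate 2 on the vertical axis (both log axes). Circles are the 85 peaks with an E2F core close to the summit (up to 50 bp) and triangles the 205 without; the strongest peaks lie high in both replicates, and the weaker ones scatter widely.

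The 6 strongest intergenic peaks stood apart from the others, with signal from 505 to 735, and the seventh had 348. Intergenic peak 1 (chrII:12739337-12739653) had a signal of 735 in the pooled list, 198 in replicate 1 and 537 in replicate 2. It lay 1176 bp upstream of *pisy-1*, which encodes phosphatidylinositol synthase, and a promoter peak lay in the same interval between genes, 563 bp away. Its rank was 33 in replicate 1 and 43 in replicate 2, so both replicates placed it high.

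Intergenic peak 2 (chrII:12799971-12800283) had a pooled signal of 674, with 179 in replicate 1 and 490 in replicate 2. It lay 292 bp beyond the 3′ end of Y46G5A.18 and 3676 bp upstream of *cpt-1*, a carnitine palmitoyltransferase gene, and held 2 cores. Intergenic peak 3 (chrIV:3211978-3212289), at 612, lay 1623 bp upstream of *slmp-1* in an interval that also held a promoter peak, and had 194 in replicate 1 and 417 in replicate 2. Peaks 2 and 3 show that the strongest summits lay both beside 3′ ends and upstream of 5′ ends.

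The other 3 of the first 6 lay just past the end of a gene on chromosome II. Intergenic peak 4 (chrII:2451056-2451379) had 560 in the pooled list, 175 in replicate 1 and 384 in replicate 2, 276 bp beyond the 3′ end of *vab-19*, which encodes an ankyrin repeat protein of epidermal attachment. Intergenic peak 5 (chrII:8015414-8015724) had 553, 126 and 428 in the same order, 320 bp beyond the 3′ end of DH11.2 and 2096 bp upstream of *zyg-11*, a substrate subunit of a CUL-2 ubiquitin ligase that acts in meiosis and the early embryo. Intergenic peak 6 (chrII:12284086-12284408) had 505, 125 and 379, and lay 105 bp beyond the 3′ end of *ife-5*, a germline isoform of the cap-binding factor eIF4E. Peaks 4 and 5 held 2 cores each and peak 6 held none.

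Intergenic peaks 7 to 15 had pooled signals from 269 to 348. Peak 8 (chrV:13131527-13131815, 342) lay 190 bp beyond the 3′ end of B0365.9 and 1688 bp upstream of *eat-6*, the sodium and potassium pump alpha subunit. Peak 9 (322) lay 1205 bp upstream of *imb-3*, an importin beta family gene, and peak 10 (320) lay 3274 bp upstream of *tcc-1*, in the interval it shares with *csn-1*, a subunit of the COP9 signalosome. Peak 11 (314) lay 1535 bp upstream of *pezo-1*, the Piezo mechanosensitive channel, and peak 12 (298) lay 1932 bp upstream of *rskn-1*, a ribosomal S6 kinase, on the side towards *daf-8*, a SMAD protein of the dauer pathway. Peak 14 (chrIV:379652-379902, 280) lay 110 bp beyond the 3′ end of *spl-1*, sphingosine-1-phosphate lyase, and peaks 13 (282) and 15 (269) lay beyond the 3′ ends of K12G11.6 and F55D12.2. Peak 7 (348) had the non-coding RNA gene C10G11.12 as its nearest annotation, 940 bp away. Of the 15 strongest intergenic peaks, 8 held a core.

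No difference in the share with an E2F core was detectable between intergenic and promoter peaks, and in both the core was far more frequent at the summit than beside it. Over all nuclear peaks 30.9% held a core within 50 bp of the summit. It was present at 87 of 297 intergenic summits (29.3%, 24.4 to 34.7%), at 593 of 1892 promoter summits (31.3%, 29.3 to 33.5%) and at 29.9% of gene body summits. The difference between intergenic and promoter peaks was −2.05 points, with an interval from −7.38 to 3.74 points. Its sign was not stable: it was positive for cores counted within 25 or 100 bp, with an interval that included 0 in each case. In windows of the same length 500 bp to either side of the intergenic summits, 24 of 594 held a core (4.04%), and in 197871 consecutive windows of the same length over all DNA of the class 3.55% did. The summits of intergenic peaks thus held the core 25.7 points more often than their class of DNA (20.9 to 31.2).

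The longer form of the core, with 1 more T in front, was present at 16.8% of intergenic summits, 1.35% of their flanks and 1.92% of all windows of the class. At promoter summits it stood at 17.3%, and the difference of −0.50 points had an interval that included 0 (−4.72 to 4.45). TTCCCGC was the most frequent form, at 33 intergenic summits, followed by TTCGCGC at 31, TTGGCGC at 27 and TTGCCGC at 9. A pair of overlapping cores on opposite strands was found at 7 intergenic summits (2.36%) and at 1.69% of promoter summits. Where an intergenic summit had a core, the nearest lay at a median of 12 bp, with 56 of 87 (64.4%) within 20 bp, against a median of 17 bp at promoter summits, of which 56.3% were within 20 bp.

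The hexamers TTCGAA and TTTGAA, taken on both strands, resemble the cell cycle genes homology region (CHR) that the LIN-54 subunit of DREAM contacts. They were present at 93 of 297 intergenic summits (31.3%, 26.3 to 36.8%), at 32.7% of the flanks and in 36.0% of all windows of the class. Promoter summits held one in 40.9% of cases, against 27.9% of their own flanks. The difference between intergenic and promoter summits was −9.54 points (−15.0 to −3.64). Gene body summits held one in 30.2% of cases and their flanks in 32.8%, and the difference between intergenic and gene body summits was 1.07 points (−6.37 to 8.49). The intervals of summit and flank shares did not overlap in promoter peaks (38.7 to 43.1% and 26.5 to 29.4%) and overlapped in intergenic peaks. Within the 4 signal bins the difference was −7.22, −6.58, −4.24 and −6.18 points from the highest to the lowest, each with an interval that included 0. Among intergenic peaks with a core 35.6% had a CHR-like hexamer, against 29.5% of those without, a difference of 6.11 points (−5.20 to 18.1).

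**Figure D4:**
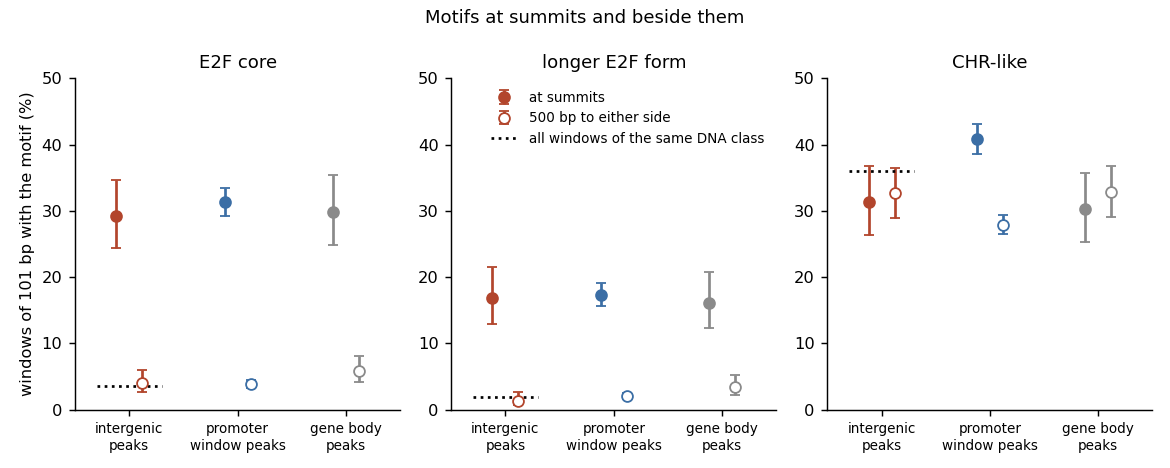
Share of 101 bp windows (percent) that hold the E2F core, its longer form or a CHR-like hexamer, at summits (filled) and 500 bp to either side (open), for intergenic, promoter window and gene body peaks. Bars are 95% Wilson intervals, and dotted lines give the share over all windows of intergenic DNA outside promoter windows; the core reaches 29.3% at intergenic and 31.3% at promoter summits, and CHR-like hexamers 31.3% and 40.9%.

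The core was most frequent in the strongest intergenic peaks. It was present in 41.9% of the highest signal bin, 24.3% of the second, 31.1% of the third and 20.0% of the lowest, against 43.8%, 25.2%, 20.0% and 15.8% of promoter peaks in the same ranges. In the third bin the intergenic share was higher by 11.1 points (0.71 to 23.0), and in the other 3 bins the interval of the difference included 0. Several measures were compared in each bin with no allowance for their number, so this single interval carries little weight. The pooled signal had a median of 65.0 over the 87 intergenic peaks with a core (quartiles 50.3 and 146) and 59.2 over the 210 without (quartiles 42.3 and 85.7), so the signals of the 2 sets overlapped widely. Top regions of both replicates held 72.4% of those with a core and 60.5% of those without, a difference of 11.9 points whose interval included 0 (−0.08 to 22.6).

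Most cores between genes were not near a peak. Of the 9350 cores in intergenic DNA outside promoter windows, 109 lay within 50 bp of an optimal summit (1.17%, 0.97 to 1.40%). In promoter windows 706 of 9556 did (7.39%, 6.88 to 7.93%), a difference of −6.22 points (−6.80 to −5.66), and in gene bodies 107 of 19935 did (0.54%). Intergenic DNA and promoter windows had similar numbers of cores, and similar shares of their summits held one (29.3% and 31.3%). The difference between them thus largely restates the peak counts, 297 against 1892, and is not a separate result about the core.

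Annotated 5′ ends of protein-coding genes lay at a median of 1907 bp from the intergenic summits, with the farthest at 16644 bp. The nearest 5′ end lay downstream of the peak in 168 cases, as for a promoter, and 129 summits lay on the gene's side of it, beyond the gene's far end. Of the 297, 91 (30.6%) lay 1001 to 2000 bp upstream of it and 54 (18.2%) within 1001 to 1500 bp. Just outside the limit were peaks 1003 bp upstream of F58D5.5 (signal 61.5), 1006 bp upstream of *inso-1* (40.9) and 1010 bp upstream of ZK154.6 (36.9). Just inside it, and so among the promoter peaks, were peaks 999 bp upstream of *nra-4* (213) and *alh-1* (74.4) and 998 bp upstream of C34C12.8 (67.6).

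Density fell with distance from the nearest 5′ end. It was 20.1 intergenic peaks per Mb at 1001 to 2000 bp (140 peaks, 16.9 to 23.7), 11.1 at 2001 to 3000 bp (51 peaks, 8.23 to 14.5), 11.8 at 3001 to 5000 bp (60 peaks, 8.97 to 15.1) and 6.19 beyond 5000 bp (27 peaks, 4.08 to 9.01). The 19 peaks closer than 1000 bp, all beyond the 3′ end of the gene whose 5′ end it was, stood at 29.9 per Mb (18.0 to 46.7). Signal did not follow the density, with medians between 58.0 and 66.1 in all 5 ranges. The core was present at 49 of 138 summits more than 2000 bp away (35.5%) and at 38 of 159 nearer ones (23.9%), a difference of 11.6 points (1.22 to 21.8). The share did not rise steadily with distance. It was 37.3% at 2001 to 3000 bp, 36.7% at 3001 to 5000 bp and 29.6% beyond 5000 bp (15.9 to 48.5%). Many comparisons were made among intergenic peaks with no allowance for their number, so the interval for the cut at 2000 bp carries little weight.

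The 5 intergenic peaks farthest from a protein-coding 5′ end lay 15 to 771 bp from their nearest gene edge, against a median of 362 bp over all intergenic peaks. Peak 71 (chrIII:12528148-12528231, signal 102), 16644 bp from the 5′ end of *aakg-1*, lay 116 bp beyond the 3′ end of *sql-1*, a golgin gene. Peak 129 (66.2) lay 15 bp from a small nucleolar RNA (snoRNA) gene, peak 145 (61.7) 162 bp from a long intervening non-coding RNA gene, peak 72 (101) 470 bp from a pseudogene and peak 214 (45.1) 771 bp beyond the 3′ end of *pod-2*, acetyl-CoA carboxylase, whose 5′ end was also the nearest one. The windows of peaks 71, 72 and 214 also had similar copies elsewhere in the genome.

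Intergenic peaks were denser near the 3′ ends of protein-coding genes than elsewhere in their class of DNA. The window rule leaves out summits close to coding 5′ ends, so counts by nearest gene edge were read against the DNA that the rule leaves. The nearest edge was the 3′ end of a protein-coding gene for 143 peaks (48.1%, 42.5 to 53.8%), at a median of 288 bp, and for 31.7% of the class DNA. It was a 3′ end of any gene for 186 peaks (62.6%, 57.0 to 67.9%) and for 53.7% of that DNA. Within 500 bp of the 3′ end of a protein-coding gene lay 111 intergenic peaks (37.4%), on 15.3% of the DNA of the class. That is 33.5 per Mb (27.6 to 40.4), against 10.1 per Mb in the rest of the class (8.73 to 11.7). Because genes are close together, 3′ ends also tend to lie near the next gene's start, and the comparison was repeated by distance from the nearest 5′ end. Up to 2000 bp it gave 37.8 and 14.5 peaks per Mb, and beyond 2000 bp 26.2 per Mb (17.9 to 37.0) near 3′ ends and 8.25 per Mb (6.75 to 9.97) elsewhere. In the top regions of a single replicate the densities were 29.0 to 35.1 per Mb near 3′ ends and 9.97 to 10.8 elsewhere.

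No difference from the other intergenic peaks was detectable in signal, core share or detection. The median signal of peaks near 3′ ends was 58.2, against 63.3 elsewhere, and 34.2% lay above the median of the list, against 40.3%, a difference of −6.09 points (−17.0 to 5.36). Of them, 26.1% held a core, against 31.2%, a difference of −5.06 points (−15.1 to 5.78). Top regions of both replicates held 63.1% of them and 64.5% of the others, a difference of −1.45 points (−12.8 to 9.55).

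The arrangement of the flanking genes gave smaller differences. Per Mb of its DNA, intervals between the starts of 2 genes (head-to-head) held 10.5 intergenic peaks (57 peaks, 7.93 to 13.6), intervals between an end and a start (head-to-tail) 14.8 (173 peaks, 12.7 to 17.2) and intervals between 2 ends (tail-to-tail) 14.8 (67 peaks, 11.5 to 18.8). With protein-coding genes alone as bounds the values were 8.30, 15.5 and 18.4 per Mb. In the top regions of replicate 1 alone the tail-to-tail value was 11.3 per Mb, close to its head-to-head value of 11.0, and with a window of 500 bp upstream the 3 values were 17.0, 18.7 and 16.2 per Mb, so the order depended on the replicate and on the window. The core was present in 36.8%, 27.7% and 26.9% of the 3 kinds in that order.

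Among the non-coding neighbours counted, small nucleolar RNA genes had the highest density of intergenic peaks, with an interval that overlapped that of small nuclear RNA genes. SnoRNAs guide the chemical modification of ribosomal and other RNAs, and many lie in introns while others have their own promoters. Within 200 bp of a snoRNA gene lay 11 intergenic peaks (3.70%), on 0.13% of the DNA of the class, or 389 per Mb (194 to 696). Near small nuclear RNA genes, which include the spliced leader genes, the density was 139.7 per Mb (2 peaks, 16.9 to 505), and near long intervening non-coding RNA genes 43.7 (2 peaks, 5.29 to 158). For transfer RNA genes the density was 79.9 per Mb (6 peaks, 29.3 to 174), for pseudogenes 30.0 (15 peaks, 16.8 to 49.4), for genes annotated as other non-coding RNA 24.0 (19 peaks, 14.4 to 37.4), and for piRNA genes, whose products are germline small RNAs, 2.23 (3 peaks, 0.46 to 6.52). No intergenic peak lay within 200 bp of a microRNA gene, with an exact Poisson interval of 0 to 106 per Mb.

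Of the 11 peaks near snoRNA genes, 10 lay before the snoRNA's 5′ end, from 5 to 113 bp away. Peak 94 (chrIV:7573907-7574242) lay 47 bp before F32E10.10 and had a signal of 81.0 in the pooled list, 7.01 in replicate 1 and 67.6 in replicate 2. Peak 156 (chrIII:8937594-8937929) lay 5 bp before ZK643.9, with 59.2, 19.0 and 41.7, and peak 178 (chrV:15873804-15874139) lay 46 bp before T06C12.16, with 53.7, 17.4 and 36.9. The exception was peak 23 (209), 91 bp beyond the 3′ end of C26C6.13, and it was also the only one of the 11 with a core. The signals of the other 10 ran from 42.0 to 81.0.

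Seen from the genes, 71 of 346 snoRNA genes had their 5′ flank in the class of DNA, and 8 of them (11.3%, 5.82 to 20.7%) had an intergenic peak within 200 bp upstream. For transfer RNA genes this was 2 of 125 (1.60%), a difference of 9.67 points (2.88 to 19.2), and for piRNA genes 2 of 5664. All 11 peaks overlapped top regions of replicate 2 and 7 those of replicate 1. Among the intergenic regions of each replicate's own top list, 4 lay within 200 bp of a snoRNA gene in replicate 1 and 11 in replicate 2, so the count rests largely on replicate 2. Peak 126 (chrII:5543563-5543898, signal 66.5) lay 24 bp beyond the 3′ end of *sls-2.2*, a gene for the SL2 spliced leader used in operons; it was chosen after its values were seen.

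**Figure D5:**
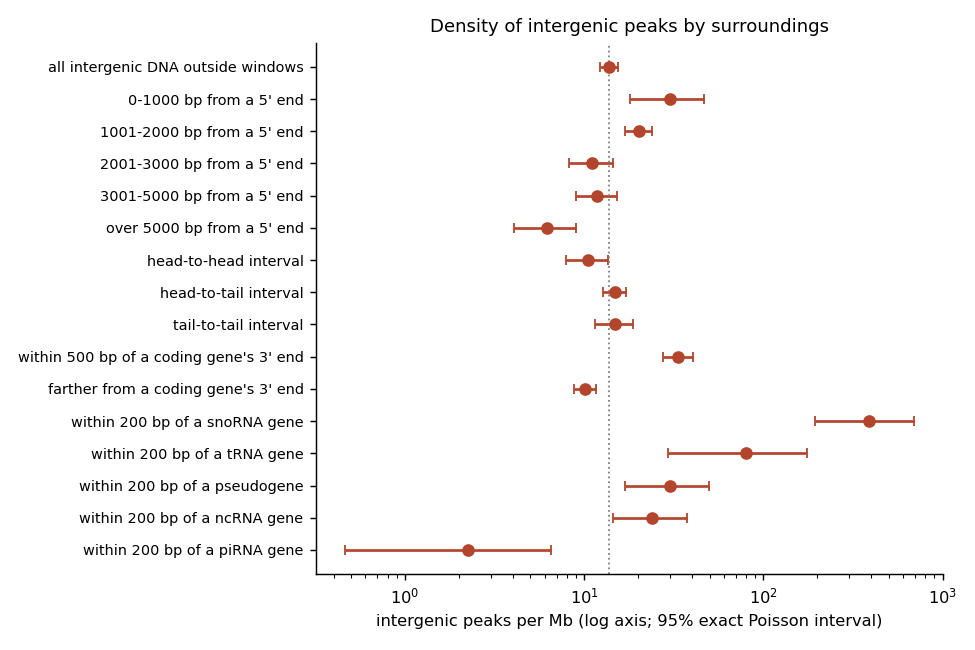
Intergenic peaks per Mb of intergenic DNA outside promoter windows (log axis) by distance from the nearest protein-coding 5′ end, arrangement of the flanking genes and nearby annotation. Points are densities with 95% exact Poisson intervals, and the dotted line marks the 13.7 per Mb of all such DNA; DNA within 200 bp of snoRNA genes (389 per Mb) and within 500 bp of coding 3′ ends (33.5 per Mb) lies above it, and DNA beyond 5000 bp from a 5′ end (6.19 per Mb) below.

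Chromosomes differed in density. Per Mb of the class, chromosome III held 27.0 intergenic peaks (67 peaks, 20.9 to 34.2), I 20.3 (51), II 19.7 (61), IV 12.2 (53), V 11.1 (45) and X 3.85 (20 peaks, 2.35 to 5.95). Neighbouring chromosomes in this order, apart from X, had overlapping intervals. Promoter peaks were also sparsest on X, at 16.8 per Mb of promoter window, against 49.6 to 121 on the autosomes. Of the 98 nuclear peaks on X, 20 (20.4%) were intergenic, against 277 of 2382 autosomal peaks (11.6%), a difference of 8.78 points (1.86 to 17.9). This share was not adjusted for the length of each class of DNA. X held the most DNA of the intergenic class, 5.19 Mb, against 2.49 to 4.34 Mb on each autosome. The strongest intergenic peak on X was peak 48 (chrX:16418494-16418660, signal 141, with 33.7 in replicate 1 and 106 in replicate 2), 1749 bp upstream of *eat-17*, and the strongest on III was peak 22 (chrIII:5181248-5181648, 213, with 46.2 and 173), 4484 bp upstream of *pup-2*, a poly(U) polymerase gene. Nearer to peak 22 were the 3′ ends of the snoRNA gene K10D2.10, at 595 bp, and of *cid-1*, at 929 bp. On III the core was present at 28 of 67 intergenic summits (41.8%), against 59 of 230 elsewhere (25.7%), a difference of 16.1 points (3.56 to 29.2); III was singled out after its value was seen.

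The genes with the nearest 5′ end numbered 286, or 1.43% of the 19985 protein-coding genes. They were set against 7 gene lists, 333 names in all, which covered the cell cycle and the germline and included a list for body tissues. Few members of these lists were among the genes with the nearest 5′ end. The counts were 1 of 41 DNA replication genes, 3 of 76 genes of mitosis and the cell cycle, 1 of 10 genes of DREAM and E2F, 0 of 39 of meiosis and germline chromatin, 1 of 53 of the oocyte and early embryo, 0 of 52 of sperm and 1 of 58 of body tissues. Each count is 3 or fewer, too few to set any list apart from the 1.43% background.

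The 3 genes of mitosis and the cell cycle among them each had an intergenic peak with a core. Over all intergenic peaks 29.3% held one, and in the highest signal bin, where peaks 33 and 45 fell, 41.9% did. These 3 peaks are too few to set beside those shares. Peak 45 (chrII:7807047-7807239) lay 4105 bp upstream of *cki-1*, which encodes an inhibitor of cyclin-dependent kinases, held 3 cores, and had a signal of 146 in the pooled list, 33.2 in replicate 1 and 113 in replicate 2. The non-coding RNA genes T05A6.9 and T05A6.12 lay nearer to it, at 759 and 1066 bp. Peak 76 (chrIII:9110310-9110645) lay 1206 bp upstream of *cya-1*, a cyclin A gene, with 1 core and signals of 94.7, 16.5 and 79.7. Peak 33 (signal 169) lay 652 bp beyond the 3′ end of *plk-2*, a Polo-like kinase of meiotic chromosome pairing, with 2 cores. Among these 3, *cki-1* and *cya-1* had the peak on the side of their 5′ end and *plk-2* on the side of its 3′ end.

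Other list members had the peak past their 3′ end. Peak 204 (chrIV:4047614-4047949), with signals of 48.2 in the pooled list, 16.9 in replicate 1 and 28.5 in replicate 2 and with 1 core, lay 155 bp from the 3′ end of *pcn-1*, the sliding clamp of DNA replication, and 210 bp from that of *cdc-73*. Peak 26 (chrIII:8899771-8900006, signal 191) and peak 291 (chrIII:8899934-8900269, 35.5) lay 336 and 135 bp beyond the 3′ end of *lin-9*, which encodes a core DREAM subunit. The 2 are 201 bp apart and fall on the same region in each replicate's list, with 46.8 in replicate 1 and 144 in replicate 2, so they count as 1 observation there. Peak 100 (chrII:11333934-11334269, signal 76.6, 2 cores), the nearest to *sqt-1*, a cuticle collagen gene, lay 18 bp from a transfer RNA gene, and its window had a copy elsewhere in the genome. Peak 84 (chrIII:4491330-4491665, signal 87.3, no core) lay between the converging 3′ ends of *cpg-1*, an eggshell proteoglycan gene, and *atf-7*. The stretch with the core of peak 26, on the plus strand, is shown because *lin-9* encodes a part of the complex that EFL-1 joins.
Intergenic peak 26 (chrIII:8899843-8899869): aattcgttttTTGGCGCaaaaagttaa
The core lay 45 bp before the summit of peak 26.

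Among the 290 intergenic peaks present in both replicates' lists, the largest gaps in rank were at weak peaks. Peaks 223, 234 and 256 ranked from 1656 to 1967 in replicate 2 and from 23805 to 25801 in replicate 1, with signals of 32.8 to 39.3 in replicate 2 and 4.07 to 4.28 in replicate 1. In the other direction, peaks 240, 255 and 241 ranked from 923 to 1413 in replicate 1 and from 3570 to 5901 in replicate 2. All 6 had pooled signals between 39.2 and 43.2, near the lower end of the list at 34.9, and 1 of the 6 held a core. The other 7 intergenic peaks were absent from the list of replicate 1, with pooled signals from 36.3 to 58.2. By the ratio of signals, peaks 69 and 107, named after their values were seen, differed more. Peak 69 had 6.65 in replicate 1 and 97.5 in replicate 2 (pooled 104), and peak 107 ranked 12074 in replicate 1 and 899 in replicate 2 (pooled 74.5).

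Of the measures of sequence context, copy number differed from that of promoter peaks and not detectably from that of gene body peaks. The median GC content of the 101 bp windows was 41.6% at intergenic and 43.6% at promoter summits. The summit lay in repeat-masked sequence for 84 intergenic peaks (28.3%) and 26.2% of promoter peaks, a difference of 2.12 points (−3.11 to 7.83), while 42.3% of the class DNA was masked. Windows with a copy of at least 90% identity over at least 91 bp elsewhere in the genome numbered 22 (7.41%, 4.94 to 11.0%), against 2.80% of promoter peaks, a difference of 4.61 points (2.00 to 8.22). Among gene body peaks 10.3% had one, and the difference from intergenic peaks was −2.90 points (−7.62 to 1.74). Reads from such copies may not be separable, and without these 22 peaks 28.0% of the remaining 275 held a core, against 29.3% of all 297.

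Intergenic peaks were mostly single. The 297 lay in 280 intervals between genes, of which 17 held 2 each. Of the 297, 14 (4.71%) shared the interval with a promoter peak. The next optimal peak of any class was a median of 7084 bp away, and 70 (23.6%) had one within 2000 bp, against 20.9% of promoter peaks, a difference of 2.64 points (−2.22 to 8.08).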

How the data were processed

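Peak lists of 10 columns were used in build ce11. Per the labels, the authors made a relaxed list for each replicate against a control, a relaxed list from both replicates pooled, and an optimal list that passed an irreproducible discovery rate threshold. Column 7 is the authors' signal value, whose scale is not stated, and column 9 the authors' deposited −log10 q-value. For the aligner, the peak caller and this threshold, names and values were not given in the sources used here. Signal described, ranked and filtered regions within a list and was not tested between replicates. Sequencing depth is unknown, and control reads were not analysed here.

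The annotation was Ensembl release 115 for WBcel235, and sequence was read from the RefSeq copy of that assembly. Summits were classified by position, and motifs, overlaps of at least 1 bp and densities were computed in Python 3.11.15 with numpy 2.4.6, pandas 2.3.3 and scipy 1.17.1, and copies were found with BLAST 2.17.0. Class assignment was checked at random genome positions by direct search of the annotation, and the motif search on cores planted in random sequence. The coverage of the Newcombe interval was checked by simulation. Shares have 95% Wilson intervals, differences Newcombe intervals and counts exact Poisson intervals. A difference was called where its interval excluded 0. Peaks are not replicates of a condition, so no p-values were computed.

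The regions and gene lists were chosen with earlier results of these data known. Regions named were the 15 intergenic peaks of highest signal, the highest of each chromosome, the 10 highest with a core, the 5 farthest from a 5′ end, 3 rank disagreements each way, 3 on each side of the 1000 bp limit and up to 4 genes per list. The peaks near snoRNA genes and *sls-2.2* were added after their values were seen. Alternatives covered the window, the annotation, the motif, the overlap rule and each replicate's list alone.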

Additional observations from a re-analysis of the deposited data

How the results depend on the processing

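Of 89 values recomputed under 15 alternatives, 72 kept their call, meaning a share or density inside the reported interval, a count within 1.5 times, or a difference whose interval still included or still excluded 0. None changed sign where an interval excluded 0. The difference in core share from promoter peaks, −2.05 points, was 1.51 with 2000 bp, 0.52 for whole peaks, 0.94 for cores within 25 bp and 4.89 for cores within 100 bp, each with an interval that included 0. The count of intergenic peaks was 466 with a window of 500 bp upstream, 184 with 2000 bp and 113 in the upper 50% of the list. It was 330 with protein-coding gene spans alone, 208 with windows also on non-coding transcripts and 204 where the whole peak had to lie outside genes and windows. With 500 bp, head-to-head and head-to-tail densities were 17.0 and 18.7 per Mb, and with 2000 bp the head-to-tail density was 12.3 per Mb. The share with a core was 19.9% within 25 bp, 40.4% within 100 bp, 16.8% for the longer form and 35.4% in the upper 50% of the list. Of those 204, 69.6% lay in top regions of both replicates and 46.1% above the median signal. A reciprocal overlap of 50% gave 51.9% in top regions of both replicates, and the upper 50% gave 96.5%, with a difference from promoter peaks of −1.84 points whose interval included 0.

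Leaving out either replicate gave 295 to 299 intergenic peaks, a core share of 25.8 to 29.4%, a tail-to-tail density of 11.3 to 16.1 per Mb and 4 to 11 peaks near snoRNA genes. RefSeq annotation, added after the data were seen, gave 280 peaks, 29.6% with a core. The single-copy, 3′ end and snoRNA alternatives were also added then. No paired analysis was possible because there was only 1 group.

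Depth was unknown, 2 replicates give no measure of spread for single peaks, and no strain without the transgene was analysed here.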
